A study of Mus musculus with 6 samples.

Results

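The genes described here lie beside Prtn3 on mouse chromosome 10. Prtn3 encodes proteinase 3, the serine protease that was knocked out in this study. The members are a given list of 31 neighbours of Prtn3, with Prtn3 itself and the adjoining neutrophil elastase gene Elane left out. The list is not every gene of the stretch: Odf3l2, at 0.00 to 0.06 FPKM, lies within it and is not a member. They are 31 of the 18822 genes with a value in the deposited files. All 31 were matched by gene ID, and they span 513 kb, from Shc2 to Stk11 (chr10:79617934-80130679, GRCm38.p6), with 16 members before Prtn3 and 15 after it.

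RNA was sequenced from glomeruli, the capillary tufts that filter blood, isolated from kidneys of C57BL/6J mice. The 6 libraries form 2 groups of 3, PR3 knockout (PR3_KO) and wild type (WT), and all come from animals with diabetic kidney disease, so there is no non-diabetic group. The sources used here give neither the mice's age, nor the way diabetes was brought about, nor the construction of the knockout allele. Nothing states that each library is a different animal. The p-values thus reflect only how far these samples spread, which may be technical.

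Prtn3 sits in a small cluster of serine protease genes that neutrophils and their bone marrow precursors use, packed among genes of unrelated function that most cells express. The neighbours include a splicing regulator, subunits of the transcription machinery, a tumour suppressor kinase, actin-binding proteins, receptors and a peroxide-detoxifying enzyme. They share a place, not a pathway. Genes beside a targeted locus are commonly inspected in knockout mice because the modified allele and the DNA linked to it travel together through breeding.

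Values are FPKM, fragment counts scaled by transcript length and by the mapped fragments of the library, given as mean ± SD (n = 3 per genotype) or library by library. Fold changes are differences of log2(FPKM + 1), PR3_KO minus WT, which understate the change of low genes. A gene was tested when its mean over the 6 libraries was at least 1 FPKM, and it is said to have risen or fallen when limma's Benjamini-Hochberg adjusted p was under 0.05. Judged from the smallest steps between low values, which rest on 3 to 7 olfactory receptor genes a library, depth was roughly 15200000 fragments, and 13300000 for WT 1.

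The libraries differed between genotypes far beyond this locus. Of 12388 tested genes 52.8% were called, 11.7% as higher and 41.1% as lower in PR3_KO, and the median log2 fold change was -0.26. Median-of-ratios scaling, which rescales each library to its typical gene, moved that median to 0.03, and 25.4% then rose and 22.3% fell. The summed level of 12 proximal tubule markers was 50540 to 67532 FPKM in PR3_KO and 8301 to 23608 FPKM in WT, and 11 of these genes rose. Most of each sum came from Kap alone, at 40546 to 57590 FPKM in PR3_KO and 5248 to 18509 FPKM in WT. The summed level of 12 macrophage markers was 93.2 to 148 FPKM in PR3_KO against 666 to 1408 in WT, and that of 12 glomerular endothelial markers 878 to 1221 against 2439 to 2978. All 12 genes of both lists fell. The summed podocyte markers, 10 genes that define the glomerular epithelium, were at 350.2 to 559.6 FPKM in PR3_KO and 646.7 to 1050 in WT, so the labelled tissue was present in every library, as were tubular transcripts. In such bulk samples, fewer cells of a type and less RNA per cell cannot be told apart.

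Prtn3 measured 0.14, 0.00 and 0.07 FPKM across PR3_KO 1, 2 and 3, against 0.46, 0.21 and 0.22 across the WT libraries. The groups did not overlap, but 1 fragment over its 1025 exonic nucleotides is worth about 0.064 FPKM at the estimated depth, so these values stand for a handful of fragments. Elane, which begins 3.1 kb after Prtn3, measured 0.00, 0.00 and 0.07 FPKM in PR3_KO libraries 1, 2 and 3 and 0.32, 0.15 and 0.08 FPKM in WT libraries 1, 2 and 3. Both genes gave p = 0.1 in a two-sided exact permutation test, the lowest value possible for 3 libraries against 3. After median-of-ratios scaling the separation of Elane was lost (exact permutation test, p = 0.2), and without WT 1 the difference of its means went from -0.16 to -0.0917 FPKM. That of Prtn3 went from -0.227 to -0.145 FPKM. The targeted transcript was therefore lower in the libraries labelled knockout, on very few fragments. Markers of neutrophils, the cells that make both proteases, summed to 38.4, 31.4 and 394 FPKM in PR3_KO 1, 2 and 3. The sums in WT 1, 2 and 3 were 171, 253 and 150 FPKM. The highest sum, that of PR3_KO 3, came mostly from S100a8 and S100a9, at 134 and 180 FPKM. The part of these cells in the levels of Prtn3 and Elane was not tested.

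Of the 31 flanking genes, 21 were tested and 10 lay below the filter. Among the tested genes 7 fell, 2 rose and 12 did not pass. The 9 called members are 42.9% of those tested, against 52.8% of all tested genes. The 33.3% that fell and the 9.5% that rose stand beside 41.1% and 11.7% over all tested genes. The genotypes were fully separated in 15 of the 21 (71.4%), where 65.1% of all tested genes were. The members' median log2 fold change was -0.15, which is 0.11 above the median of all tested genes. After median-of-ratios scaling 6 members rose and 5 fell, where 47.8% of all tested genes were called (25.4% rose and 22.3% fell), and the median was 0.18, a turn of sign. The number that rose also rested on single libraries. Without PR3_KO 1 it was 0 in limma (2 at an unadjusted p under 0.05, Palm and Wdr18), and without PR3_KO 3 it was 1. As deposited, members that rose and fell lay among each other within 100 kb of Prtn3, and the 5 members called beyond 100 kb all fell.

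**Figure D1:**
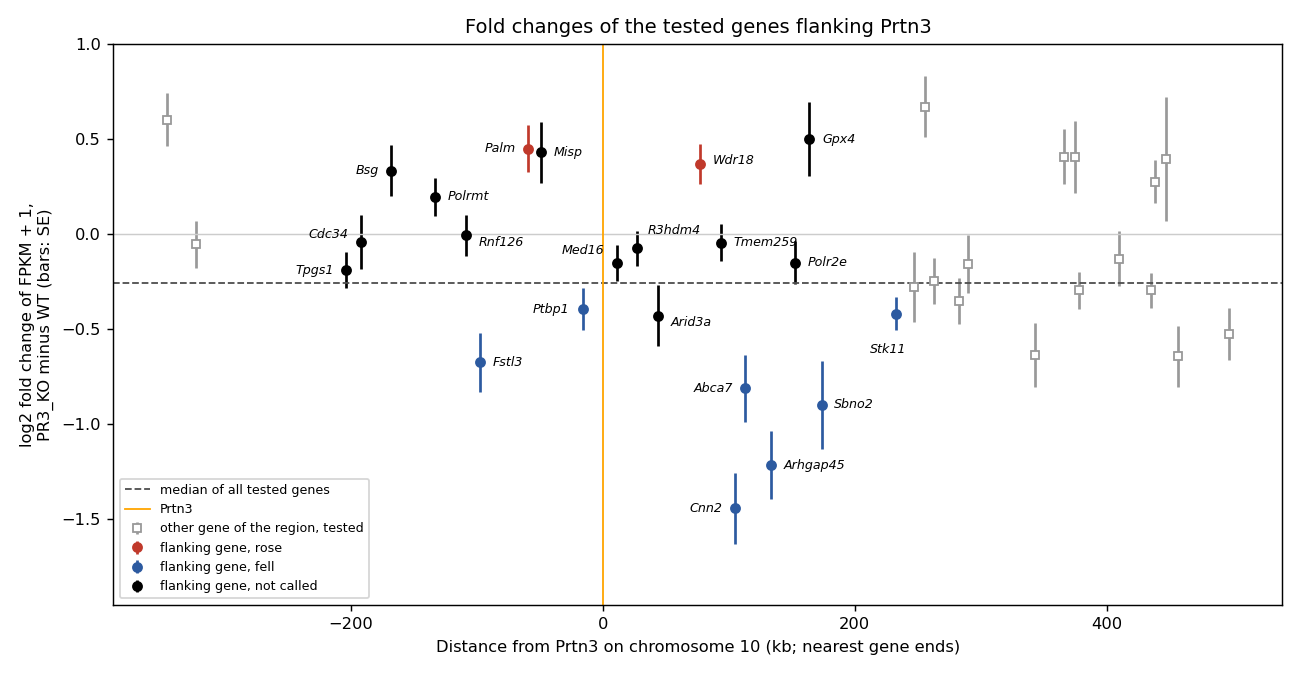
Log2 fold change of FPKM + 1 (PR3_KO minus WT, bars are limma's SE) against distance from Prtn3 in kb, negative before the gene and positive after it, for the 21 tested flanking genes (filled circles) and 17 other tested genes within 500 kb (open squares). Genes that rose, fell or did not pass lie side by side, and the lowest points, Cnn2 and Arhgap45, lie 105.4 and 133.5 kb after Prtn3 and not next to it.

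Among the tested members, Cnn2 (-1.44) and Arhgap45 (-1.21), 105.4 and 133.5 kb after Prtn3, fell most, followed by Sbno2 (-0.90) and Abca7 (-0.81). Cnn2, Abca7 and Arhgap45 follow each other directly along the chromosome. They encode an actin-binding protein, a lipid transporter and a regulator of small GTPases. Sbno2 lies farther out, 173.8 kb after Prtn3. Between Cnn2 and Prtn3 lie 5 tested members, of which 4 did not pass and 1, Wdr18, rose. The promoters of the 3 falling neighbours are shown with that of Wdr18, because these close neighbours differed in direction. Each is the RefSeq sequence of GRCm38.p6 on the plus strand, 250 bases before to 50 after the outermost start listed for its promoter. For Abca7 the annotated gene begins at 79996453, before the start on which its window was placed. Capitals mark every GC box (GGGCGG) and CCAAT box (CCAAT) on either strand.
Cnn2 (chr10:79988350-79988649): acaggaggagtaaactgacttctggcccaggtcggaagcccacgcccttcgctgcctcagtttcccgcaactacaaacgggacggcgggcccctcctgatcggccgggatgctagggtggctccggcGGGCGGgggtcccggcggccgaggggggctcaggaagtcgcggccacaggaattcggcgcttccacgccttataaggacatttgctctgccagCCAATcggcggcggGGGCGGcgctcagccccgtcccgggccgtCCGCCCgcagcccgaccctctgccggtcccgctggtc
Abca7 (chr10:79996244-79996543): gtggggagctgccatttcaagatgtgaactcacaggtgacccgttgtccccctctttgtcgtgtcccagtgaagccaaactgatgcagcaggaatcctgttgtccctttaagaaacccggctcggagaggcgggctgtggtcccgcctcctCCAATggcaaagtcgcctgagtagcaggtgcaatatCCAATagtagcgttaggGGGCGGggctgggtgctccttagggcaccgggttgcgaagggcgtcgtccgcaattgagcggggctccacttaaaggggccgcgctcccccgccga
Arhgap45 (chr10:80016422-80016721): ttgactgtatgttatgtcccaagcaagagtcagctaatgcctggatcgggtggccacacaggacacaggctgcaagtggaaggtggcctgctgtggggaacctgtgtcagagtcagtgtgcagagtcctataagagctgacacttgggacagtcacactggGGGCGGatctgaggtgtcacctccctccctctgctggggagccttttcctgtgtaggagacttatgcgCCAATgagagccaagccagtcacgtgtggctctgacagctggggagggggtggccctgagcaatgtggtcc
Wdr18 (chr10:79959902-79960201): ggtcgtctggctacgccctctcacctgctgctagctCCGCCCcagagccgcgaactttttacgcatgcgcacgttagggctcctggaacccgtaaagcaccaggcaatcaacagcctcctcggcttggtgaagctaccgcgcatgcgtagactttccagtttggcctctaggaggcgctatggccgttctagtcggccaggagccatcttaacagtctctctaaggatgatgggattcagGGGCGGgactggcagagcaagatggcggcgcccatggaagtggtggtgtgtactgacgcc

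The Cnn2 window holds 3 GC boxes and 1 CCAAT box, that of Abca7 1 and 2, that of Arhgap45 1 and 1, and that of Wdr18 2 and 0. RefSeq promoter windows were found for 26 of the 31 members. A GC box was present in 16 of these 26 and in 35.9% of 27025 promoters of the same length, and the members' windows were also richer in G and C (median 62.3% against 52.7%). The CCAAT box was in 9 of the 26 members and in 38% of all promoters. By call, the GC box was in 7 of 7 promoters of members that fell, 1 of 2 that rose, 4 of 8 that did not pass and 4 of 9 that were not tested. The CCAAT box was in 5, 1, 1 and 2 of these. The calls are those as deposited, and those of Ptbp1 and Stk11 were lost with median-of-ratios scaling. All tested genes were not split in this way, and a link between these letters and the calls was not tested. The other letters searched on both strands were GAGGAA (an ETS core), found in 5 members and 28.3% of all promoters, TATAAA in 4 and 14.2%, and CACGTG in 2 and 7.24%. These are matches of letters and not measured binding sites.

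Among the serine protease genes, the family of Prtn3 itself, none of the 3 members reached the filter. Gzmm encodes granzyme M, a protease of natural killer and T cell granules. It measured 0.28, 0.32 and 0.19 FPKM in PR3_KO libraries 1, 2 and 3 and 0.76, 0.82 and 0.65 FPKM in WT libraries 1, 2 and 3. The groups did not overlap, and the WT mean was 2.82 times the PR3_KO mean (0.743 ± 0.0862 against 0.263 ± 0.0666 FPKM; two-sided exact permutation test, p = 0.1, the lowest possible). Gzmm was the only 1 of the 10 members below the filter whose groups did not overlap, where 24.7% of all 5843 genes above 0 and under the filter did not overlap. Fitted in limma without the filter, Gzmm alone of the 10 passed (log2 fold change -0.46, adjusted p = 0.00438). One fragment of Gzmm is worth about 0.051 FPKM. The summed level of 11 T and natural killer cell markers was 8.43 to 11.1 FPKM in PR3_KO and 12.5 to 47.2 FPKM in WT, with none of them at 0 in every library. Only Gzma, another granzyme, fell among the 4 tested markers of that list (log2 fold change -1.34, limma adjusted p = 0.0498, with WT 2 highest at 20.36 FPKM), and this call was lost after rescaling. The part of these cells in the level of Gzmm was not tested.

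Prss57 encodes a further neutrophil granule protease. It measured 0.05, 0.19 and 0.14 FPKM in PR3_KO libraries 1, 2 and 3 and 0.13, 0.18 and 0.08 FPKM in WT libraries 1, 2 and 3, with overlapping groups (two-sided exact permutation test, p = 1). Its exons share 1157 nucleotides with Fstl3 on the opposite strand, and the use of strand is not given in the sources used here, so reads of the pair could not be told apart without it. Cfd encodes complement factor D, the protease that starts the alternative complement pathway and is made in quantity by fat cells. It lies 7.7 kb after Prtn3 and was at 0.00, 0.09 and 0.09 FPKM in PR3_KO, against 0.00 in all 3 WT libraries, where 1 fragment is worth about 0.071 FPKM. The adipocyte markers Adipoq, Plin1 and Cidec were between 0.00 and 0.05 FPKM in every library.

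Other genes of the alternative pathway were examined beside Cfd. Cfb, whose product factor D cleaves, was at 166 ± 14.5 FPKM in PR3_KO against 96.5 ± 6.68 in WT (limma, a rise of 0.78 in log2, adjusted p = 0.00185), and the C3b-cleaving protease gene Cfi rose by 0.63. The gene of the central component C3 fell by 1.14 (limma adjusted p = 0.00258). The gene of the stabilising factor properdin, Cfp, fell to 2.43 ± 0.630 FPKM from 13.0 ± 4.46 in WT (limma adjusted p = 0.000937). The directions of these 4 genes held with median-of-ratios scaling.

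Of the 6 members of the cytoskeleton and of signalling adaptors, Cnn2 and Arhgap45 fell and Palm rose. Misp and Tpgs1 did not pass and Shc2 lay below the filter. Among the 5 tested, 40% thus fell and 20% rose, where 41.1% and 11.7% of all tested genes did. Cnn2 encodes calponin 2, an actin-binding protein of smooth muscle, endothelium and blood cells. It measured 26.60, 40.45 and 39.41 FPKM in PR3_KO libraries 1, 2 and 3 and 82.58, 112.12 and 97.32 FPKM in WT libraries 1, 2 and 3. Every PR3_KO library lay below every WT library, with PR3_KO 1 lowest. Cnn2 fell by 1.44 on the log2 scale (SE 0.18, limma adjusted p = 0.00106), or by 1.19 relative to the median of all genes. This was the largest fall of the tested members. Its paralog Cnn3 fell by 0.70 (limma adjusted p = 0.00223), and the smooth muscle calponin gene Cnn1, at 0.13 ± 0.0721 and 0.26 ± 0.185 FPKM, was not tested.

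Arhgap45 encodes a GTPase-activating protein best known from blood cells. It measured 5.72, 8.39 and 8.31 FPKM in PR3_KO libraries 1, 2 and 3 and 16.79, 23.01 and 16.20 FPKM in WT libraries 1, 2 and 3. The groups were well apart, and PR3_KO 1 was again lowest. Arhgap45 fell by 1.21 on the log2 scale (SE 0.18, limma adjusted p = 0.00152). The macrophage and endothelial marker sums given above were lower in the same PR3_KO libraries, and their part in the falls of Cnn2 and Arhgap45 was not tested.

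Palm encodes paralemmin, a lipid-anchored protein of the plasma membrane that shapes its cytoskeleton. It lies 58.8 kb before Prtn3 and measured 61.89, 58.92 and 55.77 FPKM in PR3_KO libraries 1, 2 and 3 and 44.88, 36.45 and 47.84 FPKM in WT libraries 1, 2 and 3. All 3 PR3_KO libraries were above all WT libraries. Palm rose by 0.45 (SE 0.12, limma adjusted p = 0.0169), and by 0.71 relative to the median of all genes. Without PR3_KO 1 it stood at 0.41 and did not pass (limma adjusted p = 0.0598). Its relative Palmd fell by 1.54 (limma adjusted p = 0.000598), and Palm3 was at 2.89 ± 0.433 and 4.15 ± 0.879 FPKM (limma adjusted p = 0.0667).

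Misp, next to Palm, encodes an actin-associated protein that helps position the mitotic spindle. It measured 4.79, 3.40 and 4.05 FPKM in PR3_KO libraries 1, 2 and 3 and 2.90, 3.31 and 2.13 FPKM in WT libraries 1, 2 and 3, without overlap. Its difference of 0.43 (95% interval 0.06 to 0.80) missed the threshold (limma adjusted p = 0.0537). After rescaling by median of ratios Misp rose by 0.68 (limma adjusted p = 0.0105), and it also passed without WT 2 (0.53, limma adjusted p = 0.0255) and without PR3_KO 2 (0.53, limma adjusted p = 0.0460). It did not pass when any other single library was left out. Without WT 3 it was 0.30 and without PR3_KO 1 it was 0.33 (limma adjusted p = 0.147 and 0.170). The summed proximal tubule markers were higher in all 3 PR3_KO libraries than in any WT library, and their part in the levels of Palm and Misp was not tested.

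Tpgs1, a subunit gene of the tubulin polyglutamylase complex, averaged 29.3 ± 1.35 FPKM in PR3_KO libraries and 33.6 ± 2.54 FPKM in WT libraries, with a difference of -0.19 (95% interval -0.41 to 0.03) that became 0.13 with the scaling. Shc2, which encodes a signalling adaptor of neurons, was between 0.02 and 0.07 FPKM in every library. Its relative Shc1 fell by 0.36 (limma adjusted p = 0.0365), and this call was lost with median-of-ratios scaling.

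**Figure D2:**
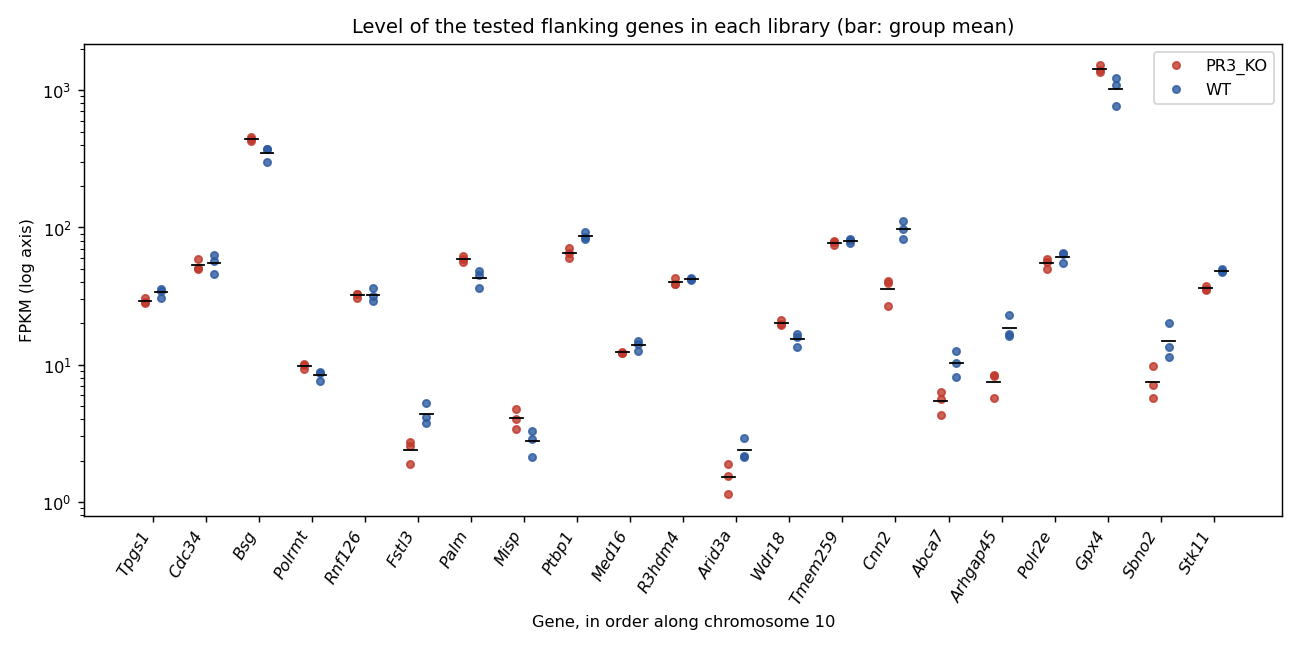
FPKM of the 21 tested flanking genes in each library on a log axis, in order along chromosome 10 (points are libraries, bars the group means). The levels run from Arid3a, at 1.14 to 2.92 FPKM, to Gpx4, at 767 to 1515 FPKM, and the widest gaps between genotypes are those of Cnn2 and Arhgap45.

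All 7 members grouped here under RNA synthesis and processing were tested. The grouping is loose and takes in regulators of transcription and R3hdm4. Of these, 2 fell (28.6%, where 41.1% of all tested genes fell) and 5 did not pass. Ptbp1 encodes the polypyrimidine tract-binding protein, a repressor of alternative exons in most tissues. It ends 15.2 kb before Prtn3 and is the nearest member that was called. It measured 60.36, 71.07 and 65.24 FPKM in PR3_KO libraries 1, 2 and 3 and 82.24, 92.06 and 84.97 FPKM in WT libraries 1, 2 and 3, with no overlap. Ptbp1 fell by 0.40 (SE 0.11, limma adjusted p = 0.0177), which is 0.14 below the median of all genes. With median-of-ratios scaling the difference was -0.07 and did not pass (limma adjusted p = 0.615). Without PR3_KO 1 or PR3_KO 3 it was -0.34 and -0.39 and did not pass either (limma adjusted p = 0.0728 and 0.0610). Both paralogs fell, Ptbp2 by 0.60 and Ptbp3 by 1.06 (limma adjusted p = 0.00351 and 0.00102), and both still passed with the scaling. Exons of Ptbp1 and of Plppr3 on the opposite strand share 178 nucleotides.

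Sbno2 encodes a transcriptional coregulator induced by anti-inflammatory cytokine signalling in macrophages. It measured 5.76, 7.06 and 9.73 FPKM in PR3_KO libraries 1, 2 and 3 and 13.51, 20.10 and 11.35 FPKM in WT libraries 1, 2 and 3. The groups did not overlap, though PR3_KO 3 and WT 3 came close. Sbno2 fell by 0.90 (SE 0.23, limma adjusted p = 0.0140), and just missed the threshold without PR3_KO 1 (-0.74, limma adjusted p = 0.0524). The summed macrophage markers were lower in all 3 PR3_KO libraries, and their part in this fall was not tested.

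Med16, a subunit of the Mediator complex that links transcription factors to RNA polymerase II, lies 11.5 kb after Prtn3 and is the nearest tested member. It measured 12.21, 12.21 and 12.48 FPKM in PR3_KO libraries 1, 2 and 3 and 12.59, 14.80 and 14.04 FPKM in WT libraries 1, 2 and 3. The PR3_KO libraries lay just below the lowest WT library, and the difference of -0.15 (95% interval -0.37 to 0.06) did not pass (limma adjusted p = 0.196). It was 0.15 with the scaling. Among 29 other Mediator genes, 12 fell and 1 rose (2 and 6 with the scaling), led by Med7 and Med13 (-0.60 and -0.64, limma adjusted p = 0.00137 and 0.00171). These 12 are close to the 41.1% of all tested genes that fell.

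Polr2e encodes a subunit shared by all nuclear RNA polymerases. It averaged 55 ± 4.75 FPKM in PR3_KO libraries and 61.1 ± 5.53 FPKM in WT libraries, with overlapping groups and a difference of -0.15 (95% interval -0.42 to 0.12, limma adjusted p = 0.297). Of 11 other subunits of RNA polymerase II, Polr2d and Polr2k fell and 9 did not pass, but with the scaling 4 rose and 0 fell (limma). Over all tested genes 41.1% fell, and with the scaling 25.4% rose and 22.3% fell. Polrmt encodes the RNA polymerase of mitochondria. It measured 10.12, 9.26 and 9.98 FPKM in PR3_KO libraries 1, 2 and 3 and 8.90, 7.62 and 8.75 FPKM in WT libraries 1, 2 and 3, so that every PR3_KO library was higher. The difference of 0.20 did not pass as deposited (limma adjusted p = 0.128) and was 0.49 with the scaling, where it did (limma adjusted p = 0.0120). None of 7 other genes of mitochondrial transcription and DNA replication was called by limma, although Tfb2m and Twnk had an unadjusted p under 0.05, and these 2 rose with the scaling.

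Arid3a encodes a DNA-binding factor known from B cells. It measured 1.14, 1.55 and 1.88 FPKM in PR3_KO libraries 1, 2 and 3 and 2.15, 2.92 and 2.11 FPKM in WT libraries 1, 2 and 3, with no overlap. Its difference of -0.43 (95% interval -0.80 to -0.06) narrowly missed the threshold (limma adjusted p = 0.0514). It passed without PR3_KO 3 (-0.53, limma adjusted p = 0.0470), but not with the scaling (-0.21, limma adjusted p = 0.229). Without PR3_KO 1 or WT 2 it was -0.32 in both fits and did not pass (limma adjusted p = 0.166 and 0.123). R3hdm4 was at 40.1 ± 2.45 and 42.2 ± 0.716 FPKM, with overlapping groups and a difference of -0.07 that became 0.25 with the scaling.

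Of the 10 members that encode ligands, receptors, channels and other membrane proteins, 4 were tested and 2 of them fell (50%). Over all tested genes 41.1% fell. Abca7 encodes a lipid transporter of the ABC family that macrophages and other phagocytes use. It measured 4.33, 5.62 and 6.34 FPKM in PR3_KO libraries 1, 2 and 3 and 10.33, 12.59 and 8.09 FPKM in WT libraries 1, 2 and 3, without overlap. Abca7 fell by 0.81 (SE 0.18, limma adjusted p = 0.00700), and by 0.52 with the scaling (limma adjusted p = 0.0240). Its relatives Abca1, the cholesterol exporter, and Abca3 rose by 0.52 and 0.54 (limma adjusted p = 0.0217 and 0.0388). The part of the lower macrophage marker sums in the fall of Abca7 was not tested.

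Fstl3 encodes a secreted inhibitor of activins and myostatin. It measured 1.88, 2.72 and 2.56 FPKM in PR3_KO libraries 1, 2 and 3 and 4.17, 5.28 and 3.78 FPKM in WT libraries 1, 2 and 3. The groups did not overlap. Fstl3 fell by 0.67 (SE 0.15, limma adjusted p = 0.00836), and by 0.42 with the scaling (limma adjusted p = 0.0267). The overlap of its exons with those of Prss57 leaves the source of some of these fragments uncertain. Of the related genes Fst, Inhba, Inhbb and Gdf11, which encode follistatin and ligands of the kind that follistatins bind, Gdf11 alone was tested, and it fell by 0.50 (limma adjusted p = 0.0345), a call lost with the scaling.

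Bsg encodes basigin, the chaperone that carries lactate transporters to the cell surface and is plentiful in tubule cells. It measured 452.96, 441.92 and 424.57 FPKM in PR3_KO libraries 1, 2 and 3 and 374.43, 302.26 and 374.74 FPKM in WT libraries 1, 2 and 3. All PR3_KO libraries were higher, but the difference of 0.33 (95% interval 0.02 to 0.65) missed the threshold (limma adjusted p = 0.0681). With the scaling Bsg rose by 0.66 (limma adjusted p = 0.0187). Its partner Slc16a1, a lactate transporter, was at 7.20 ± 1.61 and 7.34 ± 1.90 FPKM. The lactate exporter gene Slc16a3 and the basigin relative Emb fell by 0.84 and 0.92 (limma adjusted p = 0.0112 and 0.00191). Slc16a7, also set beside Bsg, fell by 0.61 (limma adjusted p = 0.0268), a call lost with the scaling.

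Tmem259, which encodes an endoplasmic reticulum membrane protein, averaged 77.4 ± 2.73 FPKM in PR3_KO libraries and 79.9 ± 3.02 FPKM in WT libraries, with overlapping groups. Its difference was -0.05 (95% interval -0.27 to 0.18). With the scaling it was 0.28 and did not pass (limma adjusted p = 0.0827).

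The other 6 membrane and ligand genes lay below the filter and their groups overlapped. The kisspeptin receptor gene Kiss1r was between 0.52 and 0.95 FPKM, and the pacemaker channel gene Hcn2 between 0.53 and 0.96 FPKM. Plppr3, the member next to Prtn3 on the other side from Elane, with 4.7 kb between them, measured 0.76, 0.75 and 0.99 FPKM in PR3_KO libraries 1, 2 and 3 and 0.92, 1.15 and 0.63 FPKM in WT libraries 1, 2 and 3 (two-sided exact permutation test, p = 0.7). It is known from neurons and had the highest mean of the members below the filter. The glutamate receptor subunit gene Grin3b was between 0.26 and 0.57 FPKM. The fibroblast growth factor gene Fgf22 reached 0.13 FPKM at most. Madcam1, the homing ligand of gut venules, was at 0.05 FPKM in PR3_KO 1 and WT 1 and at 0.00 in the other 4 libraries.

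**Figure D3:**
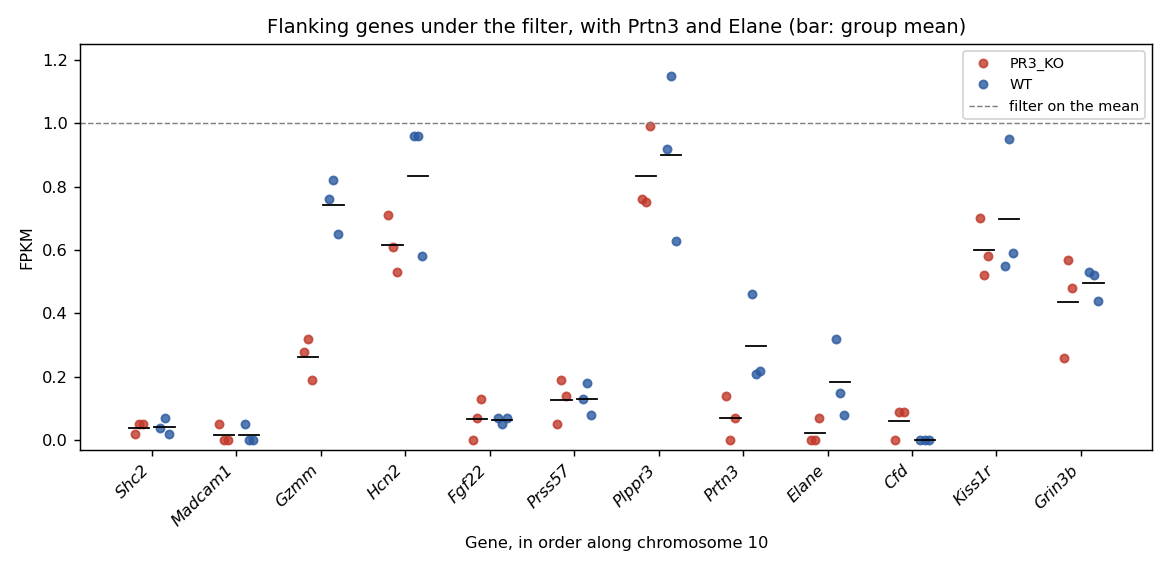
FPKM in each library of the 10 flanking genes under the filter, with Prtn3 and Elane, in order along chromosome 10 (points are libraries, bars the group means, the dashed line the filter on the mean). Gzmm separates the genotypes, at 0.19 to 0.32 against 0.65 to 0.82 FPKM, and the other 9 members overlap.

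Among the 5 enzymes and assembly factors, 1 fell and 1 rose (20% each, where 41.1% and 11.7% of all tested genes did). Stk11 encodes the kinase LKB1, a tumour suppressor that activates the energy sensor AMPK. It measured 35.61, 37.38 and 35.18 FPKM in PR3_KO libraries 1, 2 and 3 and 47.73, 48.37 and 49.49 FPKM in WT libraries 1, 2 and 3. Libraries within each genotype were close to each other and the groups far apart. Stk11 fell by 0.42 (SE 0.09, limma adjusted p = 0.00570), which is 0.16 below the median of all genes. With median-of-ratios scaling the difference was -0.10 and did not pass (limma adjusted p = 0.441). Its exons share 232 nucleotides with those of Cbarp on the opposite strand.

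Of 8 genes that act with LKB1 or are its substrates, 3 rose and 2 fell (5 and 2 with the scaling). Over all tested genes 11.7% rose and 41.1% fell (25.4% and 22.3% with the scaling). The scaffold gene Cab39 fell by 0.70 and the AMPK subunit gene Prkaa1 by 0.72 (limma adjusted p = 0.00137 and 0.00530). The gene of the other catalytic AMPK subunit, Prkaa2, rose by 0.40 (limma adjusted p = 0.0385). Sik1, a kinase gene also known for fast induction, and Stradb, which encodes a pseudokinase partner of LKB1, rose by 0.53 and 0.56 (limma adjusted p = 0.0114 and 0.0119).

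Wdr18 encodes a WD-repeat protein of the complex that helps mature the large ribosomal subunit. It lies 77 kb after Prtn3 and measured 21.05, 19.55 and 19.73 FPKM in PR3_KO libraries 1, 2 and 3 and 16.84, 13.45 and 15.97 FPKM in WT libraries 1, 2 and 3. Every PR3_KO library was higher. Wdr18 rose by 0.37 (SE 0.11, limma adjusted p = 0.0205), and by 0.68 with the scaling (limma adjusted p = 0.00593). Without PR3_KO 1 or PR3_KO 3 it was at 0.34 and 0.38 and did not pass (limma adjusted p = 0.0692 and 0.0541). Its partners did not rise with it: Tex10 and Senp3 fell by 0.57 and 0.44 (limma adjusted p = 0.00598 and 0.00710), while Pelp1 and Las1l did not pass. With the scaling none of these 4 partners was called by limma, and Tex10 alone had an unadjusted p under 0.05.

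Gpx4 encodes the peroxidase that removes lipid hydroperoxides from membranes, and it had the highest level of the members. It measured 1515.01, 1410.85 and 1356.00 FPKM in PR3_KO libraries 1, 2 and 3 and 1089.70, 766.99 and 1226.55 FPKM in WT libraries 1, 2 and 3. The groups did not overlap, and the WT libraries were spread more widely. The difference of 0.50 (95% interval 0.05 to 0.95) missed the threshold (limma adjusted p = 0.0596). It passed with the scaling (0.83, limma adjusted p = 0.0275) and without WT 3 (0.64, limma adjusted p = 0.0339). Without WT 2, the lowest library, it was 0.30 (limma adjusted p = 0.0508). Among 5 other tested glutathione peroxidases, Gpx3, the form secreted by proximal tubules, and Gpx1 rose by 1.13 and 0.78 (limma adjusted p = 0.00259 and 0.0235). Gpx7 and Gpx8 fell, and the call of Gpx7 was lost with the scaling (limma adjusted p = 0.0675). The proximal tubule marker sums were higher in PR3_KO, and their part in the levels of Gpx4 and Bsg was not tested.

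The ubiquitin enzymes showed no difference that passed. Cdc34, the ubiquitin-conjugating enzyme of the SCF ligase, averaged 53.1 ± 5.15 FPKM in PR3_KO libraries and 55 ± 8.86 FPKM in WT libraries, with a difference of -0.04 (95% interval -0.37 to 0.28). The ubiquitin ligase gene Rnf126 was at 31.9 ± 1.30 and 32.2 ± 3.57 FPKM, with a difference of -0.01 (95% interval -0.25 to 0.24). Of the 6 other SCF genes Cul1 and Fbxw7 fell (-0.30 and -0.78, limma adjusted p = 0.0236 and 0.00171). They are 33.3% of that list, where 41.1% of all tested genes fell. Only the call of Fbxw7 was kept with the scaling.

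**Figure D4:**
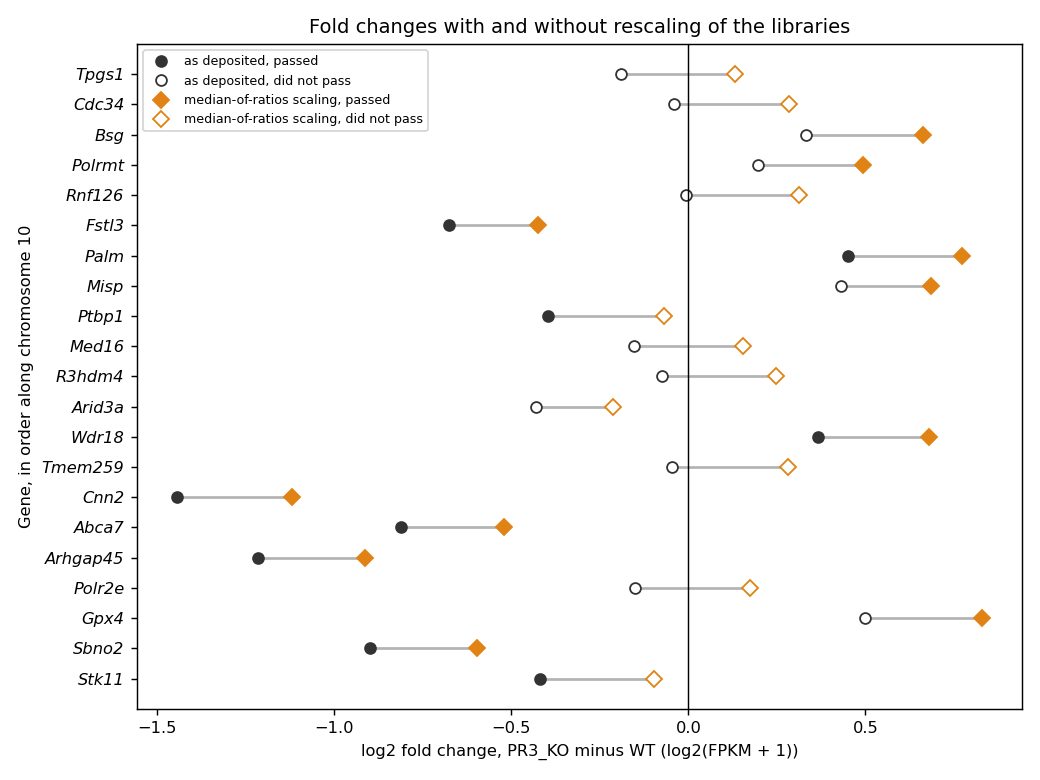
Log2 fold change (FPKM + 1, PR3_KO minus WT) of the 21 tested flanking genes as deposited (circles) and with median-of-ratios scaling (diamonds), filled where the limma adjusted p was under 0.05. The scaling moves every gene to the right, which gives 7 genes the opposite sign, ends the calls of Ptbp1 and Stk11 and adds those of Bsg, Polrmt, Misp and Gpx4.

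By position, the largest log2 fold changes of the tested members did not lie next to Prtn3. The members nearest to it, Plppr3 and Cfd, lay below the filter, as did Elane, and are not part of this comparison. Within 100 kb, 2 of 9 tested members fell and 2 rose, with a median of -0.07, and without PR3_KO 1 the calls of Palm, Wdr18 and Ptbp1 were lost. With the scaling 1 fell and 3 rose there, with a median of 0.25. Beyond 100 kb, 5 of 12 fell and 0 rose in limma (Bsg and Gpx4 were higher at an unadjusted p under 0.05), with a median of -0.17, and all 5 lay after Prtn3. With the scaling 4 of these 12 fell and 3 rose, with a median of 0.15. The share that fell as deposited, 5 of 12, stands beside 41.1% of all tested genes. Beyond 100 kb after Prtn3, 5 of 7 fell, with a median of -0.81 (4 fell and 1 rose with the scaling, median -0.52). Over the whole side after Prtn3, 5 of 12 tested members fell and 1 rose, with a median of -0.29. With the scaling 4 of those fell and 2 rose, with a median of 0.03. Beyond 100 kb before Prtn3, 0 of 5 tested members were called in the limma fit, with a median of -0.01, and the unadjusted limma p of Bsg alone was under 0.05 (0.0391). With the scaling 2 of these 5, Bsg and Polrmt, rose and the median was 0.31. These counts are small, and the dependence on position was not tested.

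Genes that rose and fell also lay farther out. Of 22 other genes with values within 500 kb of Prtn3, 17 were tested, 6 fell and 3 rose, and the median was -0.16. The 35.3% that fell and the 17.6% that rose stand beside 41.1% and 11.7% of all tested genes. Plpp2, a lipid phosphatase gene 345.9 kb before Prtn3, rose by 0.60, and Atp5d, a subunit gene of ATP synthase 255.5 kb after it, by 0.67 (limma adjusted p = 0.00929 and 0.0100). Adamtsl5, a secreted matrix protein gene, and Mex3d, an RNA-binding protein gene, fell by 0.64 and 0.52 (limma adjusted p = 0.0118 and 0.0145). After median-of-ratios scaling 5 of the 17 rose and 0 fell (limma), where 25.4% of all tested genes rose and 22.3% fell. Pwwp3a and Adamtsl5 were then still lower at an unadjusted p under 0.05. The number that fell also depended on single libraries, at 1 without PR3_KO 1 and 3 without PR3_KO 2, WT 2 or WT 3. The fall of Cnn2 and that of Arhgap45 exceeded those of all 17 other tested genes of the region, the lowest of which was -0.64.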

How the data were processed

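RNA-seq of glomeruli was deposited for 3 PR3_KO and 3 WT libraries. Per the file headers, the values are FPKM, which the authors gave to 2 decimals without counts. Bowtie2 and the build GRCm38.p6 are named in the submitters' processing notes; for the quantifier, annotation, filters and use of strand the record is: not given in the sources used here. FPKM depends on each library's mapped total, so abundant transcripts can push all other values down.

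Of 22064 IDs, 3242 were empty in all files, and 18770 of the remaining 18822 matched the RefSeq gene table. Strand and exons came from GENCODE M21 (GRCm38). Genes averaging 1 FPKM or more (12388) were taken as log2(FPKM + 1) and fitted with limma 3.58.1 (statmod 1.5.0, R 4.3.3), with genotype as the only term, an intensity trend, robust moderation and Benjamini-Hochberg adjustment over all tested genes. Genes below the filter had exact permutation tests of FPKM (scipy 1.17.1). The script was tested on simulated data. The members and lists were chosen with earlier results of these data known. Named were all members, Prtn3, Elane, up to 4 other genes of the region and up to 3 of each list with the smallest adjusted p. Adipoq, Plin1, Cidec, Cnn1, Palm3, Cfi, Gpx1, Pelp1, Las1l, Slc16a1, Twnk, Prkaa2, Stradb, Odf3l2, Fst, Inhba, Inhbb, S100a8, S100a9, Pwwp3a and Kap were named after their values were seen. One gene of the alternative complement list is not reported here. The B cell, neutrophil, adipocyte, mesangial, distal tubule and neuron markers are in the closing section.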

Additional observations from a re-analysis of the deposited data

How the results depend on the processing

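The 21 tested members were refitted in limma under 12 other settings. Fstl3, Cnn2, Abca7 and Arhgap45 passed as lower in every one. A pseudocount of 0.1 and no filter changed no call among the 21 tested members. Without the intensity trend 5 members rose. Median-of-ratios scaling had the widest effect: 6 members rose, 5 other genes of the region rose and 0 fell, 3149 of all tested genes rose and 2767 fell, and the members' median became 0.18. It gave the opposite sign to 7 members that had not passed (Tpgs1 0.13, Cdc34 0.28, Rnf126 0.31, Med16 0.15, R3hdm4 0.25, Tmem259 0.28, Polr2e 0.18). It divides each library by its typical ratio to the others, so the shift follows from its construction.

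Leaving out each library in turn gave 0 to 3 members that rose and 5 to 7 that fell, and a median between -0.16 and -0.11. Among other genes of the region 2 to 3 rose and 1 to 6 fell, and among all tested genes 917 to 1514 rose and 3837 to 4764 fell, with fewer samples in each fit. Cdc34 ran from -0.170 to 0.0606 and Rnf126 from -0.0805 to 0.0733, with sign changes but no call. Without WT 2 and PR3_KO 3 together, 1 other gene of the region fell. Differences in FPKM of Gzmm ran from -0.527 to -0.442 and of Prtn3 from -0.27 to -0.145.

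The labels do not say whether the replicate numbers pair the samples. Deviations of same-numbered libraries correlated at 0.07, 0.27 and -0.09. These values cannot decide it, since differently numbered libraries were not compared in the same way. With the number as a block, Arid3a passed as lower (-0.43, limma adjusted p = 0.0453), the other 20 tested members kept their calls, and 1550 of all tested genes rose and 5143 fell. Depth limits the members under the filter: Shc2, Madcam1, Fgf22, Prss57 and Cfd stand on a few fragments per library.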

Other observations

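Other cell type markers, given as sums over each list, were spread as follows. The 8 markers of mesangium and smooth muscle summed to 113 to 184 FPKM in PR3_KO and 257 to 393 FPKM in WT, and 5 of the 7 tested fell (limma). The 5 markers of the loop of Henle, distal tubule and collecting duct summed to 604 to 947 FPKM in PR3_KO and 919 to 1309 FPKM in WT, and 1 fell. Neuronal markers, 4 genes, summed to 4.65 to 5.36 FPKM in PR3_KO and 9.41 to 13.0 FPKM in WT, and Syp, the 1 tested, fell. The B cell list of 4 genes summed to 7.11 to 11.1 FPKM in PR3_KO and 9.05 to 13.5 FPKM in WT, with 1 of 2 tested lower. The 6 adipocyte markers summed to 10.8 to 14.6 FPKM in PR3_KO and 12.2 to 16.5 FPKM in WT, nearly all of it Lipe. Of 9 tested neutrophil markers 1, Ly6g, rose, and the wide range in PR3_KO came from PR3_KO 3, where S100a8 and S100a9 were at 134 and 180 FPKM.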
